A study of Homo sapiens with 4 samples.

Results

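The genes described here are 10 negative regulators of mitogen-activated protein kinase (MAPK) signalling, chosen by name from the 50868 genes of the table: the dual-specificity phosphatases DUSP1, DUSP2, DUSP4, DUSP5, DUSP6 and DUSP10, the Sprouty genes SPRY1 and SPRY2, and the Sprouty-related genes SPRED1 and SPRED2. They were measured by RNA-seq in Jurkat cells, a human leukaemic T lymphoblast line labelled as wild type, after 24 h in 1 of 4 conditions. The DMSO group received the vehicle, the JQ1 group received 0.5 μM JQ1, the DMSO + PHA group received vehicle and 150 ng/ml PHA, and the JQ1 + PHA group received 0.5 μM JQ1 and 150 ng/ml PHA. JQ1 displaces the BET proteins from acetylated chromatin, and phytohemagglutinin (PHA) is a plant lectin that stimulates T cells through their surface glycoproteins. Each condition had 1 library, so no test between conditions was possible, no p-value is given, and every difference has no replicate check. The cells are a single transformed line, and no primary T cell was measured here.

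MAPK cascades pass a signal from RAS through RAF and MEK to ERK, and parallel cascades activate JNK and p38. Once active, ERK drives transcription of genes whose products switch the cascade off again, and this makes a feedback loop that limits how long and how strongly a stimulated T cell signals. Dual-specificity phosphatases close the loop at the kinase itself, by removing phosphate from both the threonine and the tyrosine of its activation loop, whereas Sprouty and SPRED proteins act upstream and restrain the activation of RAS and RAF.

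Of the 10 genes, 9 had reads and 1, DUSP4, had none in any library. Each library held between 18620954 and 19685401 counts, so that 3 counts, the floor used here, amounted to 0.152 to 0.161 CPM, which is the count scaled to a common library total. Levels are given as FPKM, the count scaled by gene length and library total, and ratios are those of the count of a gene as a share of its library's total. Positions are those of the deposited tables, on GRCh38. Exact 95% (Clopper-Pearson) intervals of a ratio cover counting error only, since reads without molecular identifiers are not independent molecules and no replicate exists. All 8 T cell markers examined (CD3D, CD3E, CD3G, CD247, CD2, CD7, CD28 and LCK) were above 3 counts in every library, with a summed FPKM between 145 and 322, the lower sums in the libraries with JQ1. CSF1R, HBB and EPCAM were at 0 in every library, whereas the other markers of myeloid, erythroid and epithelial cells had reads in some or all, KRT8 with 13, 10, 21 and 10 counts in DMSO, JQ1, DMSO + PHA and JQ1 + PHA and the others with 7 or fewer. Of 3 B cell markers CD79A alone was above 3 counts throughout, at 7.48 FPKM in DMSO, 1.06 in JQ1, 6.33 in DMSO + PHA and 1.01 in JQ1 + PHA. The part of these marker levels in the ratios below was not tested. HEXIM1, a transcript known to increase when BET proteins are inhibited, stood at 36.2 FPKM in DMSO, 109 in JQ1, 34.6 in DMSO + PHA and 104 in JQ1 + PHA. CD69, an early marker of T cell activation, stood at 1.05, 0.766, 20.4 and 3.14 FPKM in the same order.

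The levels of the 9 genes with reads were low, from 0.0560 FPKM for DUSP6 in the JQ1 library to 11.0 FPKM for DUSP2 in the DMSO + PHA library. The filter for calls across all genes was a mean level over the 4 libraries of 1 FPKM or more, which 11503 genes reached, 7 of the 10 studied among them. DUSP5, with a mean of 1.02, lay just inside that filter. DUSP5 and SPRY2 reached it only through DMSO + PHA, their highest library, and DUSP10 only through the libraries with JQ1. Calls of these genes as higher in those libraries, or lower against them, are therefore not independent of the filter. SPRY1 (0.251) and DUSP6 (0.163) lay below it and are described from their counts.

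**Figure D1:**
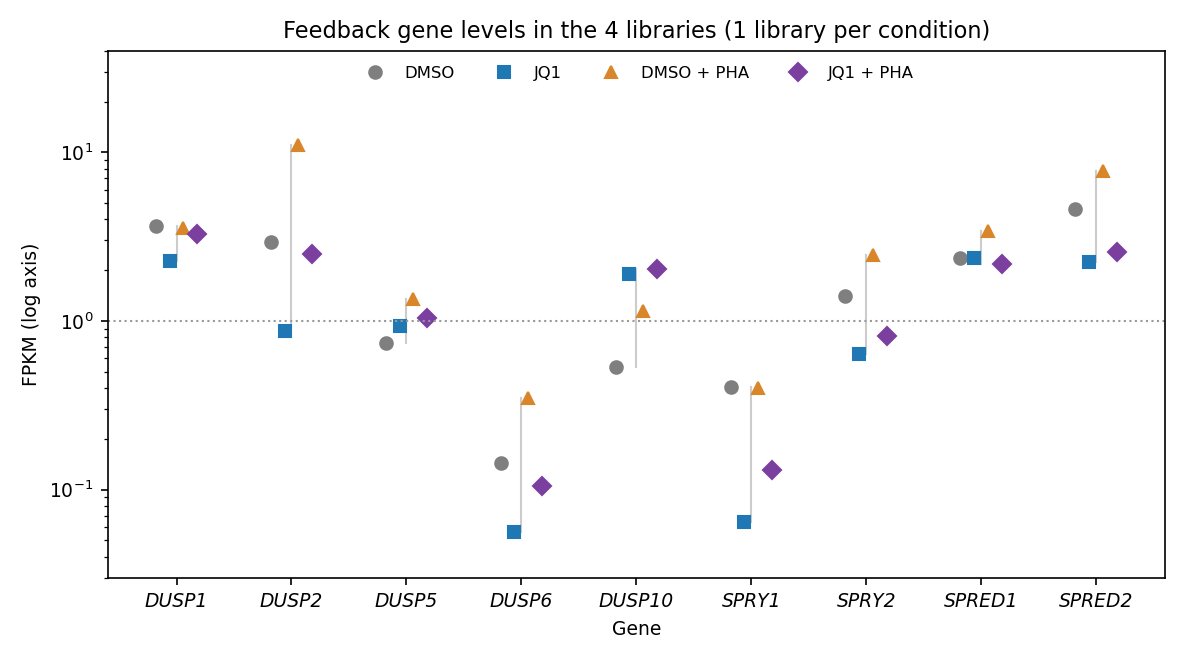
FPKM (log axis) of the 9 genes with reads in each library, 1 point per library, with a grey line from the lowest to the highest library and a dotted line at 1 FPKM. The DMSO + PHA library is highest for DUSP2, DUSP5, DUSP6, SPRY2, SPRED1 and SPRED2, whereas the libraries with JQ1 are highest for DUSP10.

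Sequences 250 bases upstream of the outermost RefSeq start are shown for 4 genes, chosen because their counts moved in different ways. These genes are DUSP1, whose counts were the most even of the nuclear phosphatases, DUSP2, with the widest range, DUSP10, higher with JQ1, and SPRY1, lower with JQ1. The sequences are from RefSeq on GRCh38.p14, written 5′ to 3′ on the strand of the gene, and capitals mark matches to the motifs searched.
DUSP1 (chr5:172771196-172771445, minus strand): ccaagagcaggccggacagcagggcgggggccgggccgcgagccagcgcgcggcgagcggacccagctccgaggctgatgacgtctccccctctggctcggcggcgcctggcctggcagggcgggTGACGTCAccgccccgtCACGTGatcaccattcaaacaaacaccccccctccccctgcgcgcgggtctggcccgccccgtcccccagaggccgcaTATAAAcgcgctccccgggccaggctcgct
DUSP2 (chr2:96145441-96145690, minus strand): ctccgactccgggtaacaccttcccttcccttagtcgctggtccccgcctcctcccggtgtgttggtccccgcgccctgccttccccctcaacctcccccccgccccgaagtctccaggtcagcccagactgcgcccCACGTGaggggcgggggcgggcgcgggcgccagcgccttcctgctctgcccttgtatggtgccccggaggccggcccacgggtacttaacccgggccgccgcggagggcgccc
DUSP10 (chr1:221742090-221742339, minus strand): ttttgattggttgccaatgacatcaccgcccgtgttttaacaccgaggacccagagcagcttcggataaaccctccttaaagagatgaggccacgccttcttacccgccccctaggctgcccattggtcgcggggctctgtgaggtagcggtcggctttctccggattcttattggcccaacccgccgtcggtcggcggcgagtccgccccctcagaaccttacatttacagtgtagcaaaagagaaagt
SPRY1 (chr4:123396545-123396794, plus strand): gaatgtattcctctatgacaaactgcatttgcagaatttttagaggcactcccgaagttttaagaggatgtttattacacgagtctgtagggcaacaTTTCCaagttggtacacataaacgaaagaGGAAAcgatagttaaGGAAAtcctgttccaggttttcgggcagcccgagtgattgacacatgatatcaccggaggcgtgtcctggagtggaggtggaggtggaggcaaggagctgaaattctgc

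Promoter entries of 8 of the 9 genes with reads were searched, those of DUSP1, DUSP2, DUSP6, DUSP10, SPRY1, SPRY2, SPRED1 and SPRED2, and DUSP5 had no entry. On both strands, 9 motifs were searched. The AP-1 site was spelled TGACTCA and the cyclic AMP response element (CRE) was spelled TGACGTCA. The core of NFAT sites was GGAAA and the ETS site was CCGGAAG, whose letters overlap by GGAA. The EGR site was GCGTGGGCG, the E-box was CACGTG, and for the core promoter the letters TATAAA were searched. The CArG box and the NF-kB motif were searched by their usual consensus. DUSP1 held the CRE from 125 to 118 bases upstream of its start, the E-box from 108 to 103 and TATA from 30 to 25. The E-box was also in DUSP2, from 113 to 108 bases upstream. The NFAT core was found in 3 of the 8 promoters, those of SPRY1, SPRY2 and DUSP6, and the windows of DUSP10, SPRED1 and SPRED2 held none of the 9 motifs. DUSP10, SPRY1 and SPRED2 have 2 RefSeq starts and SPRY2 has 3, and only the window at the outermost start was searched. Among 27326 promoters of the same length, the CRE was in 1.749%, the E-box in 6.466%, TATA in 11.2% and the NFAT core in 56.03%, so the last match is a common one. AP-1, ETS, EGR, the CArG box and the NF-kB motif were in none of the 8, beside 4.154%, 8.783%, 0.7136%, 1.149% and 5.076% of all promoters. The median GC content was 64.6% in the 8 and 57.6% in all. Of the DUSP2 window, 55 bases lie in an exon of the non-coding gene ENSG00000228873, of the SPRED2 window 38 bases lie in an exon of SPRED2 itself, and all 250 bases of the DUSP6 window, with its NFAT cores, lie in an exon of the antisense gene ENSG00000274021. A match here is a run of letters, not a measured binding site.

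In unstimulated cells, the comparison of JQ1 with DMSO asks which of these brakes differ in level with JQ1. DUSP2, SPRY1, SPRY2 and SPRED2 were lower by more than 2-fold in the JQ1 library, DUSP10 was higher by more than 2-fold, and DUSP1, DUSP5, DUSP6 and SPRED1 did not pass that mark, which is set on FPKM after adding 0.1. Of the 7 genes within the filter, 3 were 2-fold lower and 1 was 2-fold higher, beside 8.65% and 5.22% of the 11503 genes tested. The 1 higher, DUSP10, passed the filter only through the libraries with JQ1. SPRY2 and SPRED2 were close to the mark: the count lower was 2 with TMM scaling and 1 with DESeq2 size factors, and a pseudocount of 1 in place of 0.1 left 1 lower and 0 higher. The interval of the ratio lay below 0 on the log2 scale for 4 of the 7 and above 0 for 1, beside 38.7% and 36.9% of all tested genes, so that passing counting error alone was common in this comparison. Of the pair below the filter, SPRY1 was 2-fold lower and DUSP6 was not, where 19.2% of the 6536 genes with a mean FPKM from 0.1 to 1 were 2-fold lower. The median log2 ratio of FPKM was -0.67 over the 9 genes with reads and also over the 7 within the filter. It was -0.01 over all genes tested. A lower share of counts in a bulk library may be fewer cells with the transcript or fewer copies per cell, and these cannot be told apart.

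With PHA present, the comparison of JQ1 + PHA with DMSO + PHA asks the same of stimulated cells. The genes 2-fold lower with JQ1 were DUSP2, SPRY2 and SPRED2 within the filter and SPRY1 and DUSP6 below it, and no gene was 2-fold higher. This is 3 of 7 lower and 0 of 7 higher, beside 8.00% and 3.69% of the genes tested, and both genes below the filter, beside 20.7% of genes in that range. By counting error, 4 of the 7 were lower and 1 was higher, beside 38.2% and 34.6%. SPRY2, among those lower, passed the filter only through DMSO + PHA, the control here. DUSP10, the 1 higher by counting error, passed it only through the libraries with JQ1. The median log2 ratio of FPKM was -0.63 over the 7 genes within the filter, against -0.02 over all genes tested, which passed the same filter. Over the 9 genes, with the 2 below the filter, it was -1.12. Both JQ1 comparisons use separate libraries for the control, so neither shares a library with the other.

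**Figure D2:**
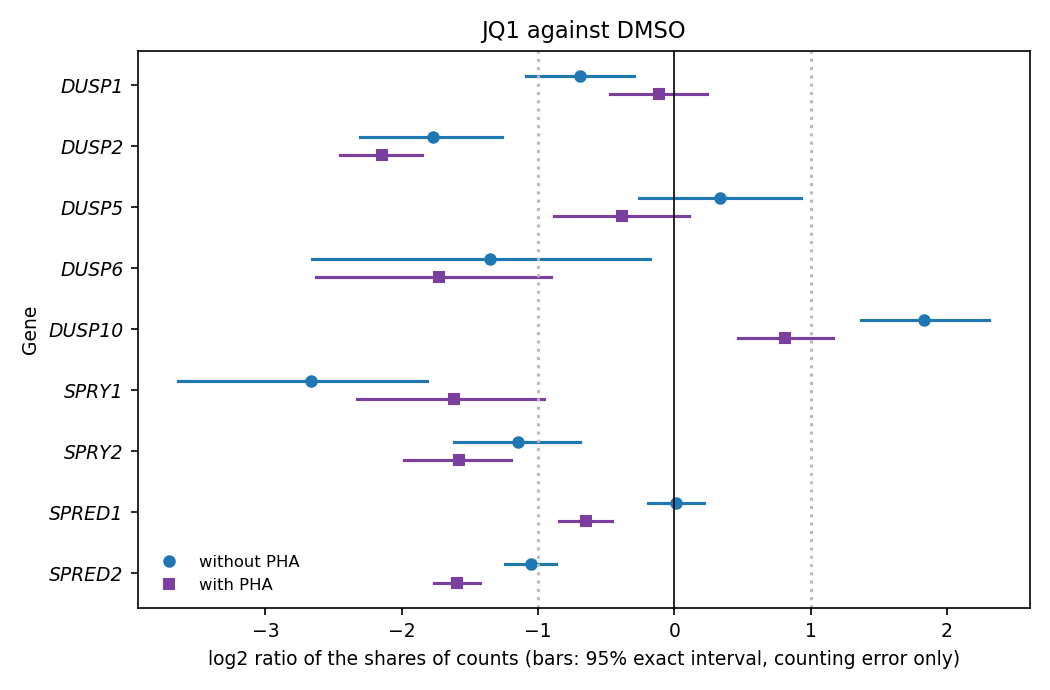
Log2 ratio of the shares of counts, JQ1 against DMSO (circles) and JQ1 + PHA against DMSO + PHA (squares), for the 9 genes with reads, with 95% exact intervals that cover counting error only and dotted lines at 2-fold. DUSP2, DUSP6, SPRY1, SPRY2 and SPRED2 lie below 0 in both comparisons, DUSP10 lies above 0 in both, and DUSP5 lies on both sides with intervals that include 0.

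DUSP2 (chr2:96143166-96145440, minus strand), a nuclear phosphatase of ERK and p38 that is induced on activation of lymphocytes, had the widest range of the 9, 12.7-fold from the lowest to the highest FPKM. Its counts were 137 in DMSO, 42 in JQ1, 533 in DMSO + PHA and 114 in JQ1 + PHA, or 2.96, 0.867, 11.0 and 2.49 FPKM. DMSO + PHA stood well above the other libraries, and JQ1 + PHA lay near the unstimulated DMSO library. JQ1 against DMSO gave a log2 ratio of -1.77, with an interval from -2.31 to -1.26, which is 3.41-fold lower. With PHA it was -2.14 (-2.45 to -1.85), or 4.42-fold lower, a ratio under which only 1.66% of the tested genes lay. PHA against no PHA gave 1.89 (1.62 to 2.18) in DMSO-treated cells, 3.72-fold higher, and 1.52 (0.998 to 2.07) in JQ1-treated cells, 2.87-fold higher. DUSP2 was thus higher with PHA on either background and lower with JQ1 on either background. Its level with both agents differed from that in DMSO by -0.25 (-0.62 to 0.12), an interval that included 0.

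DUSP1 (chr5:172768090-172771195, minus strand), an immediate early nuclear phosphatase that acts on p38, JNK and ERK, had 139, 90, 142 and 124 counts in DMSO, JQ1, DMSO + PHA and JQ1 + PHA, or 3.66, 2.27, 3.57 and 3.30 FPKM. The JQ1 library alone was low, and the others lay within a narrow range. JQ1 against DMSO was -0.69 (-1.09 to -0.30), 1.62-fold lower, and with PHA the same ratio was -0.12 (-0.47 to 0.24). PHA gave -0.03 (-0.38 to 0.31) without JQ1 and 0.54 (0.14 to 0.95) with it. DUSP1, although an early response gene, thus differed between DMSO and DMSO + PHA by less than counting error at 24 h.

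DUSP5 (chr10:110497838-110511544, plus strand), a nuclear phosphatase specific for ERK, had 44, 58, 84 and 61 counts in the same order, or 0.741, 0.934, 1.35 and 1.04 FPKM. Its highest library was DMSO + PHA and its lowest DMSO. PHA against no PHA was 0.87 (0.32 to 1.43) where no JQ1 was given, 1.82-fold higher, and with JQ1 it was 0.15 (-0.39 to 0.70). For JQ1 the ratios were 0.33 (-0.26 to 0.93) without PHA and -0.38 (-0.88 to 0.11) with PHA, so no JQ1 difference in DUSP5 was detectable at this depth. DUSP4, the remaining nuclear phosphatase, was listed at 0 counts in the 4 libraries, which allows up to 0.161 CPM in the shallowest.

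DUSP6 (chr12:89347232-89353271, minus strand), a cytoplasmic phosphatase specific for ERK and a widely used readout of ERK activity, had only 22, 9, 56 and 16 counts, or 0.143, 0.0560, 0.348 and 0.105 FPKM. A part of its exons overlaps the antisense gene ENSG00000274021, which was at 0 counts in every library. The order of the libraries was that of DUSP2, with DMSO + PHA highest and JQ1 lowest. JQ1 against DMSO was -1.35 (-2.66 to -0.18) and, with PHA, -1.73 (-2.63 to -0.90), or 2.56-fold and 3.31-fold lower. PHA gave 1.28 (0.55 to 2.07) in DMSO-treated cells, 2.43-fold higher, and 0.91 (-0.36 to 2.27) in JQ1-treated cells, where counts of 9 and 16 could not show a difference of that size.

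DUSP10 (chr1:221701424-221742176, minus strand), a phosphatase directed at JNK and p38 rather than at ERK, was higher with JQ1, with 50, 186, 113 and 188 counts or 0.532, 1.89, 1.15 and 2.02 FPKM. Both libraries with JQ1 were near 2 FPKM, DMSO + PHA was lower and DMSO was the lowest. JQ1 against DMSO gave 1.83 (1.37 to 2.31), 3.56-fold higher, and 98.9% of the tested genes had a lower ratio. With PHA the ratio was 0.81 (0.47 to 1.16), or 1.76-fold higher. PHA against no PHA was 1.11 (0.62 to 1.62), 2.16-fold higher in the share of counts, and did not pass 2-fold on FPKM after adding 0.1. In the presence of JQ1 it was 0.10 (-0.21 to 0.40). Either agent alone thus went with more DUSP10, and in these libraries PHA added no detectable amount to JQ1.

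SPRY1 (chr4:123396795-123403760, plus strand), which restrains signalling from receptor tyrosine kinases and from the T cell receptor to RAS, had 79, 13, 81 and 25 counts, or 0.408, 0.0643, 0.400 and 0.131 FPKM. Its libraries fell into a pair without JQ1, nearly equal, and a pair with JQ1, both lower. JQ1 against DMSO was -2.67 (-3.64 to -1.81), 6.36-fold lower and the lowest ratio of the 9 genes. Of the 11503 tested genes, which do not include SPRY1, 0.982% were below it. Being 2-fold lower was more common among genes with a mean FPKM from 0.1 to 1, at 19.2%, than among the tested genes, at 8.65%. With PHA it was -1.62 (-2.32 to -0.95), 3.06-fold lower. PHA against no PHA was -0.03 (-0.49 to 0.44) without JQ1. With JQ1 it was 1.02, with an interval whose lower end, 0.0015, was barely above 0 and whose upper end was 2.11.

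SPRY2 (chr13:80335976-80340951, minus strand), which acts at the same step, had 125, 59, 228 and 72 counts, or 1.41, 0.634, 2.45 and 0.818 FPKM. Unlike SPRY1, it was higher in DMSO + PHA than in DMSO, by 0.80 (0.48 to 1.13) or 1.74-fold. JQ1 against DMSO was -1.15 (-1.62 to -0.69), 2.22-fold lower, and with PHA -1.58 (-1.99 to -1.19), 2.995-fold lower. The PHA ratio in JQ1-treated cells was 0.37 (-0.15 to 0.89).

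SPRED2 (chr2:65310851-65432637, minus strand), which with SPRED1 brings the RAS GTPase activator neurofibromin to the membrane, had the most counts of the 9 in every library except JQ1: 691, 348, 1203 and 377 counts, or 4.62, 2.23, 7.70 and 2.55 FPKM. JQ1 against DMSO was -1.05 (-1.24 to -0.87), 2.08-fold lower, and with PHA -1.59 (-1.76 to -1.43), 3.02-fold lower. PHA against no PHA was 0.73 (0.60 to 0.87), 1.66-fold higher, without JQ1. With JQ1 it was 0.20 (-0.02 to 0.41). Both libraries with JQ1 were thus below both without it, and the interval of the PHA ratio lay above 0 only where JQ1 was absent.

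SPRED1 (chr15:38252326-38357249, plus strand) had 385, 406, 587 and 354 counts, or 2.35, 2.37, 3.43 and 2.18 FPKM, and stood at nearly the same level in all but the DMSO + PHA library. JQ1 against DMSO was 0.01 (-0.19 to 0.22). With PHA it was -0.65 (-0.84 to -0.46), 1.57-fold lower. PHA gave 0.54 (0.36 to 0.73), 1.46-fold higher, without JQ1 and -0.12 (-0.33 to 0.09) with it. In unstimulated cells the JQ1 interval of SPRED1 thus lay wholly above that of SPRED2, although the pair act together.

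**Figure D3:**
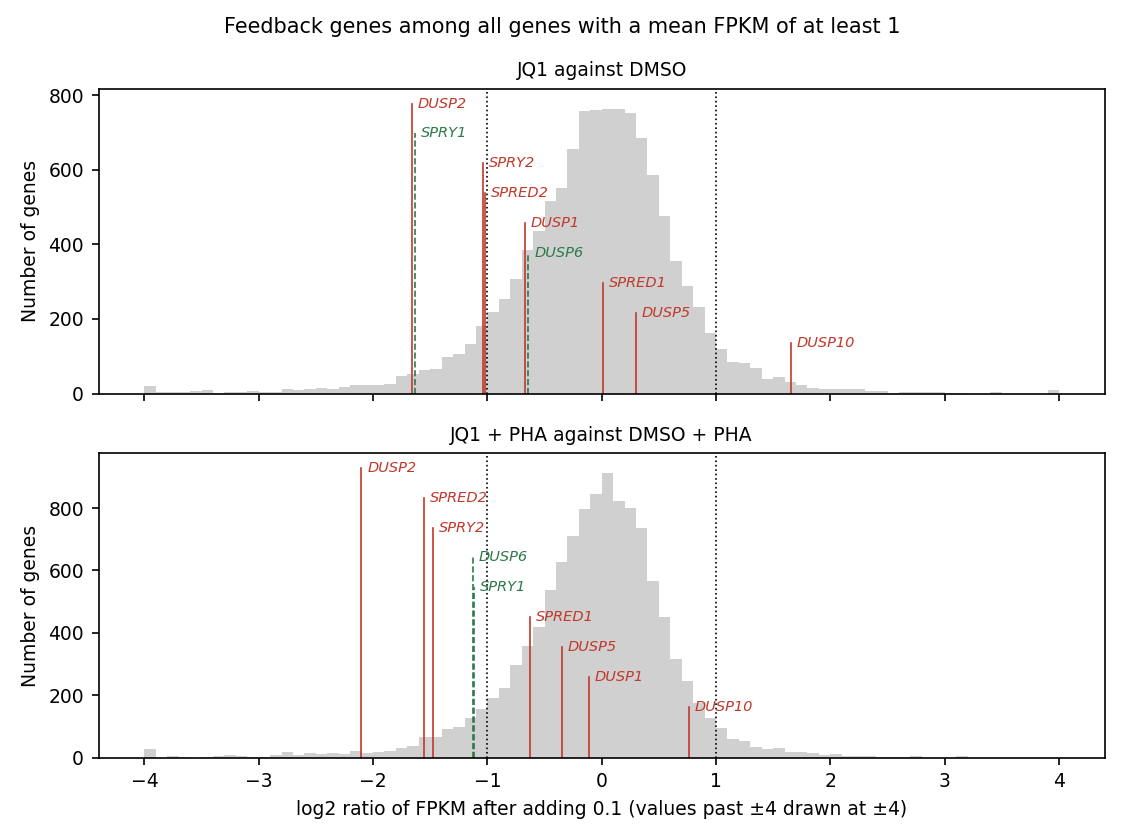
Number of genes by log2 ratio of FPKM after adding 0.1 for the 11503 genes that passed the filter (grey), with solid red lines for the 7 genes within that filter and dashed green lines for SPRY1 and DUSP6 below it, and dotted lines at 2-fold. DUSP2, SPRY2 and SPRED2 lie in the left tail in both comparisons, and DUSP10 lies in the right tail without PHA and inside the 2-fold line with PHA.

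For PHA in DMSO-treated cells, which asks how the feedback genes answer stimulation alone, 7 of the 9 genes with reads were higher in DMSO + PHA than in DMSO beyond counting error. They were DUSP2, DUSP5, DUSP6, DUSP10, SPRY2, SPRED1 and SPRED2, and DUSP1 and SPRY1 were the others. Within the filter this was 6 of 7 higher and 0 of 7 lower, beside 24.7% and 25.1% of the genes tested. Among the 6, DUSP5 and SPRY2 passed the filter only through the DMSO + PHA library, in which they are called higher. Past 2-fold there was 1 gene higher, DUSP2, and 0 lower, beside 2.10% and 1.19%. The median log2 ratio of FPKM was 0.76 over the 9 genes and also over the 7 within the filter. It was -0.01 over all genes tested.

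For PHA in JQ1-treated cells, 3 of the 9, DUSP1, DUSP2 and SPRY1, were higher in JQ1 + PHA than in JQ1 beyond counting error, and none was lower. Within the filter this was 2 of 7 higher and 0 of 7 lower, beside 15.6% and 15.7%, which is near the background for so few genes. DUSP2 was again the only 2-fold difference, 1 of 7 higher and 0 of 7 lower, beside 1.04% and 1.03%. The median log2 ratio of FPKM was 0.19 over the 7 genes within the filter and -0.00 over all genes tested. Over the 9 genes it was 0.32.

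**Figure D4:**
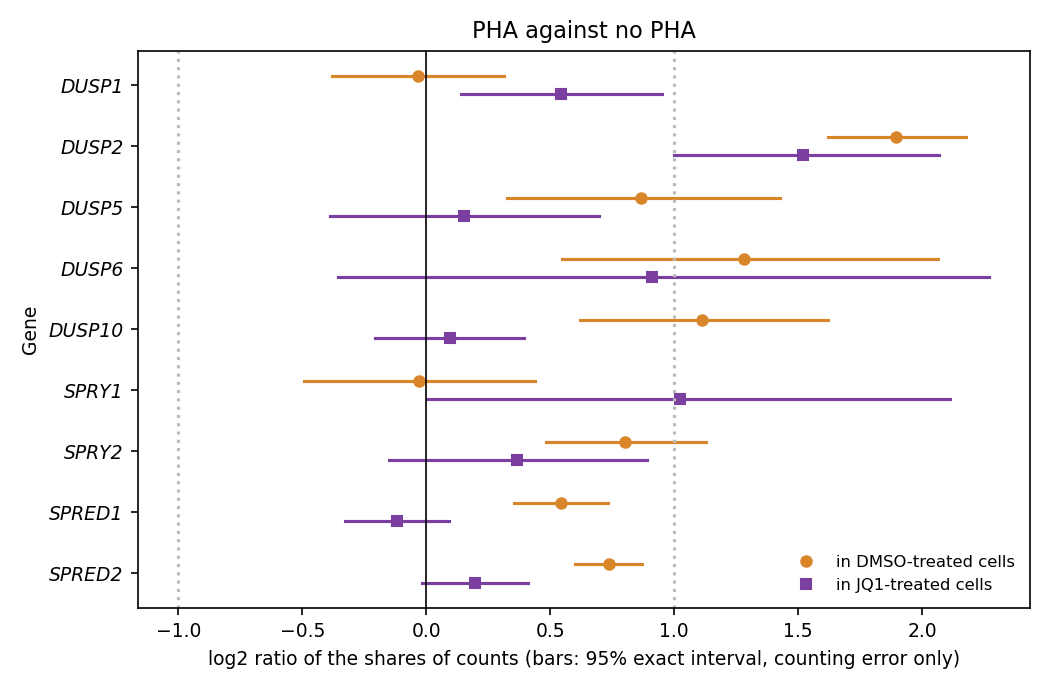
Log2 ratio of the shares of counts, DMSO + PHA against DMSO (circles) and JQ1 + PHA against JQ1 (squares), for the 9 genes with reads, with 95% exact intervals that cover counting error only and dotted lines at 2-fold. In DMSO-treated cells 7 of the 9 intervals lie above 0, in JQ1-treated cells 3 of the 9, and DUSP2 is above 1 in both.

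How far the ratio of one agent differed with the other present could be computed for 8 genes, DUSP6 being left out because 1 of its counts was below 10. The difference, the JQ1 log2 ratio with PHA minus that without, is the same number as the PHA log2 ratio with JQ1 minus that without, and its interval is a 95% normal (Wald) one from the 4 counts. It lay below 0 for 3 genes: DUSP10 at -1.02 (-1.58 to -0.45), SPRED1 at -0.66 (-0.94 to -0.38) and SPRED2 at -0.54 (-0.79 to -0.29). For these the PHA ratio was smaller in JQ1-treated than in DMSO-treated cells. It lay above 0 for DUSP1, at 0.58 (0.06 to 1.09). For DUSP2 it was -0.37 (-0.95 to 0.20), for SPRY2 -0.43 (-1.02 to 0.15), for DUSP5 -0.72 (-1.45 to 0.02) and for SPRY1 1.05 (-0.01 to 2.12), and counting error did not separate these 4 from 0. DUSP10 and SPRED2 share the sign of this difference and have opposite signs of the JQ1 ratio itself. The interval of this difference was not computed over all genes. These counts therefore have no background share beside them, and whether they are unusual was not tested.

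Cells given both agents were also set against untreated cells. DUSP10 was higher in JQ1 + PHA than in DMSO, by 1.93 (1.47 to 2.41), and SPRY1, SPRY2 and SPRED2 were lower, by log2 ratios of -1.64 (-2.36 to -0.98), -0.78 (-1.22 to -0.35) and -0.86 (-1.04 to -0.68). For DUSP1, DUSP2, DUSP5, DUSP6 and SPRED1 the interval included 0. This comparison was not made over all genes, so no background share stands beside these calls. With both agents, both Sprouty genes and SPRED2 were therefore below their level in DMSO. They were not lower than in the JQ1 library, to which JQ1 + PHA had ratios of 1.02, 0.37 and 0.20 for SPRY1, SPRY2 and SPRED2.

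Levels between genes can be compared only per length, and the order within a library was, in FPKM, headed by SPRED2 at 4.62 in DMSO, followed by DUSP1 at 3.66, DUSP2 at 2.96 and SPRED1 at 2.35. DUSP1 and DUSP2 did not differ beyond counting error, and neither did DUSP5 from DUSP10 or DUSP10 from SPRY1. In DMSO + PHA, DUSP2 headed the order at 11.0 and SPRED2 followed at 7.70. In JQ1 the first 4, SPRED1 at 2.37, DUSP1 at 2.27, SPRED2 at 2.23 and DUSP10 at 1.89, were such that no neighbours differed beyond counting error. SPRY1 and DUSP6 were the lowest in every library. The length that the deposited FPKM imply exceeds the exon length in GENCODE by a factor between 1.003, for DUSP1, and 2.59, for SPRY1, so the order depends on the length used. For DUSP2, DUSP6 and SPRY1 it also exceeds the span of the locus, with 2461 against 2275, 8166 against 6040 and 10279 against 6966 bases, so their FPKM are lower than any length within the locus would give. By GENCODE exon length, DUSP10 moved from rank 4 to rank 1 in the JQ1 library, and 18 of the 36 ranks changed. Ratios of a gene between libraries do not depend on this length.

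The genes whose pattern over the 4 libraries was most like that of each gene were found by the root mean square distance of centred log2(FPKM + 0.1), over the 11503 genes and 4 libraries. For SPRY2 the nearest of these genes was SPRED2, at a distance of 0.0524, and the next was ALOX5AP. CD48 was among the 2 nearest to SPRED2, at 0.0413. DUSP2 had no gene within 0.1, and its nearest were SH2D2A, at 0.279, and UBXN10, both also highest in DMSO + PHA and lowest in JQ1. DUSP10 lay nearest to NEU1, at 0.0324, and SPIN1. DUSP1 lay nearest to BTN3A1 and the gene ENSG00000224628, DUSP5 to CDC42BPA and CBFB, and SPRED1 to HHIP and KLF7. With 4 libraries many genes share a pattern, 92 of them within 0.1 of SPRED1.

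Of the other family members, 13 DUSP genes and 3 SPRY and SPRED genes were listed, and 8 of the former and 0 of the latter passed the filter. DUSP7, a cytoplasmic ERK phosphatase related to DUSP6, had 664, 566, 590 and 533 counts in DMSO, JQ1, DMSO + PHA and JQ1 + PHA, and its JQ1 ratio was -0.30 (-0.46 to -0.13) without PHA and -0.07 (-0.24 to 0.11) with PHA. DUSP16, directed at JNK, had 166, 65, 187 and 75 counts, with JQ1 ratios of -1.42 (-1.85 to -0.995) and -1.24 (-1.64 to -0.84). As for SPRY1, both libraries with JQ1 were below both without it, whereas DUSP10, which shares its substrate, had the reverse. SPRY4 had 3, 2, 62 and 8 counts, so that JQ1 + PHA stood at a log2 ratio of -2.87 (-4.15 to -1.81) to DMSO + PHA, and DMSO + PHA at 4.30 (2.69 to 6.62) to DMSO. SPRED3 had 22, 20, 8 and 14 counts.

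Around these genes, 82 genes of the MAPK pathway in 7 lists were examined, of which 58 passed the filter. In JQ1 against DMSO, 2 of the 58 were 2-fold higher and 5 were 2-fold lower, and with PHA 1 was higher and 4 were lower, shares near those of all genes given above. Their median log2 ratios were 0.17 without PHA and 0.07 with PHA. Of 8 other DUSP genes that passed, DUSP3, a small phosphatase that can act on ERK and JNK, was the only one past 2-fold. DUSP3 had 248, 106, 181 and 468 counts, and its JQ1 ratio was -1.29 (-1.63 to -0.96) without PHA and 1.45 (1.20 to 1.71) with PHA. No member of the feedback set had intervals on opposite sides of 0 in this way.

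Among 12 genes that lead from the T cell receptor to RAS, the exchange factor SOS2 was 2.23-fold higher in JQ1 than in DMSO, with 2019 against 865 counts, and the exchange factor RASGRP2 was 7.37-fold lower, with 66 against 465. With PHA, RASGRP2 was 5.45-fold lower and the adaptor LAT 2.33-fold lower, and SOS2 was 1.71-fold higher. LAT was 1.81-fold lower without PHA. Of 13 RAS GTPase activators and other brakes, DOK2, an adaptor that binds a RAS GTPase activator, had 213, 34, 429 and 54 counts and was 6.55-fold lower with JQ1 and 7.51-fold lower with JQ1 + PHA than in the matching control. DAB2IP, a RAS GTPase activator, was 3.06-fold lower in JQ1 than in DMSO and 1.96-fold lower in JQ1 + PHA than in DMSO + PHA. RASAL3, a RAS GTPase activator of blood cells, was 2.52-fold higher in DMSO + PHA than in DMSO. Of 9 RAF, MEK, ERK and RSK kinases that passed, MAPK3, which encodes an ERK, was 2.64-fold lower in JQ1 than in DMSO. With PHA, MAPK3 was 2.04-fold lower in the share of counts and did not pass 2-fold on FPKM after adding 0.1. None of the 12 JNK and p38 kinase genes that passed was past 2-fold on FPKM after adding 0.1 in any comparison. MAP2K6, a kinase that activates p38, came near, and in the share of counts it was 2.15-fold lower in JQ1 than in DMSO, with 125 against 257 counts.

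Of 16 ERK-responsive genes listed, only 4 passed the filter. EGR1, an immediate early transcription factor, had 29, 25, 2464 and 400 counts, and JQ1 + PHA was 5.83-fold below DMSO + PHA. IER3, an early response gene, had 49, 155, 259 and 322 counts, and JQ1 was 3.02-fold above DMSO. ETV5 and EGR3, transcription factors downstream of ERK, lay below the filter and were picked after their values were seen: ETV5 had 77, 22, 378 and 59 counts and EGR3 had 11, 5, 489 and 60. Other genes of the list below the filter, named after the same look, differed from these: PHLDA1 had 115, 178, 109 and 213 counts and FOS had 2, 9, 52 and 43.

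**Figure D5:**
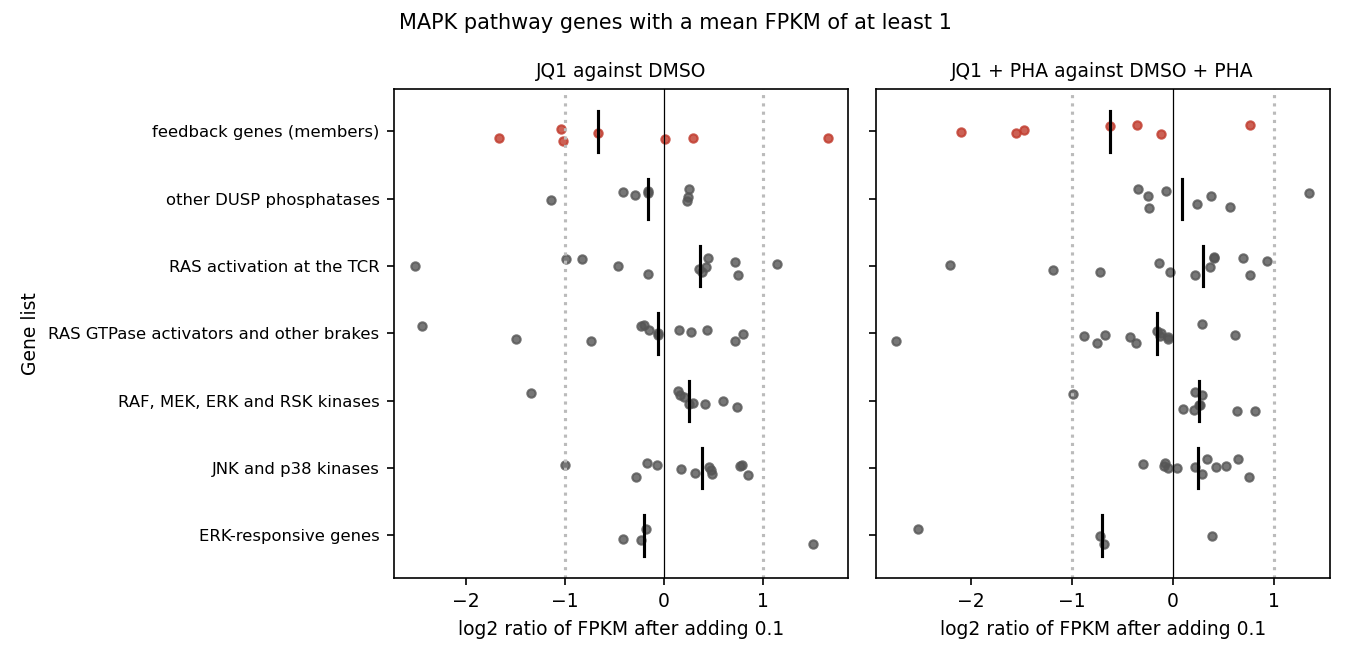
Log2 ratio of FPKM after adding 0.1 for genes of each list that passed the filter, JQ1 against DMSO (left) and JQ1 + PHA against DMSO + PHA (right), 1 point per gene, with black bars at the medians and dotted lines at 2-fold. Of the 7 feedback genes shown, 3 lie left of the 2-fold line in both comparisons. The medians of the kinase lists and of the RAS activation list lie above 0 in both. Those of the 4 ERK-responsive genes lie below 0, at -0.20 and -0.70, as do those of the RAS GTPase activators and other brakes, at -0.06 and -0.16. The medians of the other DUSP genes are -0.16 and 0.09.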

How the data were processed

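RNA was taken from Jurkat cells of 4 conditions, 1 library each, so groups were single libraries and no test between conditions was made. The deposited count is the number of reads that the authors assigned to a gene, without normalization, after alignment to GRCh38 with Hisat2 2.0.4. The deposited FPKM, as checked on the values, equal the authors' count over the library total and over a gene length that is the same in all libraries. The submitters' processing notes also list TopHat2 2.0.9 and Cufflinks 2.1.1. The labels and the methods name different library kits, and the counting program, its strand setting and the annotation release are not given in the sources used here. Without strand, reads of overlapping antisense genes cannot be told apart.

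The members were found by gene name, and the members and lists were chosen with earlier results of these data known. Where the mean FPKM over the libraries was 1 or more, genes were called past 2-fold on log2(FPKM + 0.1), which understates the differences of low genes. Ratios of shares of counts have 95% exact intervals, computed with Python 3.11.15 and scipy 1.17.1. Below 10 counts no interval of a difference of ratios was computed, and 3 counts were the floor. The differences flagged for a closer look are given without intervals and used the floor alone. The 2-fold call and the exact interval were tested on simulated counts with counting error only, for genes within the filter and large known changes. That simulation did not cover genes below the filter, changes near 2-fold or variation between replicates. Genes outside the 10 were named where they passed 2-fold in a list, as remaining family members, as the 2 nearest patterns of each gene, or as checks of the treatments. Alternatives were the pseudocount, the filter, the fold threshold, centring, scaling by edgeR 4.0.16 TMM factors or DESeq2 1.42.0 size factors (R 4.3.3), leaving out mitochondrial counts and, added after the data had been seen, GENCODE release 44 exon lengths for the order of levels. Promoter sequences are from RefSeq on GRCh38.p14. No sequence is shown for DUSP4, DUSP5 or any protein. One of the nearest patterns is not reported here.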

Additional observations from a re-analysis of the deposited data

Results flagged for a closer look

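Each of the following had a log2 ratio of opposite sign for the same agent with and without the other agent, in 1 library per condition, and the difference between conditions was not tested. Except for DUSP3, an interval of each pair of ratios included 0, so the change of sign was not separated from counting error. For PHA, DUSP1 was at -0.03 without JQ1 and 0.54 with it, a difference of 0.58, and SPRY1 was at -0.03 and 1.02, a difference of 1.05. For JQ1, DUSP5 was at 0.33 without PHA and -0.38 with it, a difference of -0.72, with both intervals including 0. SPRED1 was at 0.01 and -0.65 for JQ1 and at 0.54 and -0.12 for PHA, and both differences are -0.66, since they come from the same 4 counts.

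Among other genes of the pathway, DUSP3 had a JQ1 ratio of -1.29 without PHA and 1.45 with it, and a PHA ratio of -0.52 without JQ1 and 2.22 with it, so that both differences are 2.74. These 4 intervals each lay wholly on 1 side of 0. The PHA ratio of DAB2IP was -0.60 without JQ1 and 0.05 with it, a difference of 0.65, and that of MAPK3 was -0.28 and 0.08, a difference of 0.37. The JQ1 ratio of RASAL3 was 0.75 without PHA and -0.13 with it, a difference of -0.88. That of SPRED3 was -0.20 and 0.89, a difference of 1.09, from counts of 8 to 22 and with both intervals including 0.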

How the results depend on the processing

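No paired analysis was possible because each condition had 1 library, and for the same reason no replicate could be left out. The count of genes 2-fold higher in JQ1 than in DMSO was 1 and became 0 with a pseudocount of 1. The count 2-fold lower was 3 and became 1 with a pseudocount of 1 and 1 with DESeq2 size factors, under which SPRY2 and SPRED2, close to the threshold, no longer passed. With PHA, the count higher was 0 and became 1 at 1.5-fold, and the count lower was 3 and became 5 without the filter, through DUSP6 and SPRY1. For PHA in DMSO-treated cells the count higher was 1 and became 2 with a pseudocount of 0.01 and 5 at 1.5-fold, and in JQ1-treated cells it was 1 and became 0 with a pseudocount of 1. The other 48 such counts stayed within 1.5 times, and no direction reversed. A filter at a mean FPKM of 5 left none of the genes. TMM factors, DESeq2 size factors and leaving out mitochondrial counts shifted ratios by at most 0.0499, 0.0589 and 0.0102 on the log2 scale, and no interval moved across 0. Of 36 ratios, 15 left their interval when computed from FPKM with a pseudocount of 1, which shrinks ratios of low genes by construction. Depth limits DUSP6, SPRY1 and DUSP5 most.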
